A study of Mus musculus with 24 samples.

Results

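The response of the soleus to the loss of nebulin was read from 12 of the 24 arrays of this mouse series, the 6 labelled soleus-cKO and the 6 labelled soleus-control. The arrays were taken by these labels alone, and the other 12 arrays, from the quadriceps of mice of the same genotypes, entered the same limma fit, so that they bear on the spread, and so on the SE and p, of each soleus change. With the soleus arrays fitted alone the number of genes that changed was 4237 against 3694. The mice were males aged 40 to 42 days, their background a mix of 1219S6/SvEvTac with C57BL/6J, and every mouse carried the conditional nebulin allele on both chromosomes. The conditional knockout (cKO) mice were in addition hemizygous for MCK-Cre, a recombinase driven by the muscle creatine kinase promoter in striated muscle, and the controls had no Cre. Cre itself and the loss of nebulin therefore cannot be told apart. Ages were matched between the groups, with replicates 1 to 4 at 41 days, replicate 5 at 42 days and replicate 6 at 40 days in both. The submitters' text describes the soleus of the cKO mice as not significantly smaller than that of controls. Values are log2 of the deposited array intensities. A gene is said to have risen, fallen or changed where limma's moderated test, adjusted by Benjamini-Hochberg over the 15999 genes tested, gave an adjusted p under 0.05.

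Nebulin is a giant protein that runs along the thin, actin-based filament of the sarcomere from the Z-disc toward the pointed end, and its loss in people causes nemaline myopathy. The soleus is a postural calf muscle of the mouse, built largely of slow fibres that contain the myosin heavy chain Myh7 and of fast oxidative fibres that contain Myh2. The slow fibres live mainly on mitochondrial respiration and sit in a dense capillary bed. The labelled tissue was checked on the control arrays against the quadriceps controls. Myh7, the slow myosin heavy chain, stood at 12.56 ± 0.18 (SD, n = 6) in soleus controls and 9.78 ± 0.97 in quadriceps controls. Pvalb, the calcium buffer of fast fibres, stood at 10.09 ± 0.71 in soleus controls and 12.64 ± 0.11 in quadriceps controls. Both lay on the side that the label gives.

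The targeted gene was lower on every cKO array. Neb (chr2:52136640-52338798, GRCm38.p6) read 12.04, 12.46 and 12.56 on the lowest, the median and the highest control array and 10.94, 11.27 and 11.48 on the cKO arrays. The arrays did not overlap, and the lowest control was soleus control 1. The change was -1.14 ± 0.11 (SE), a 2.2-fold reduction with an adjusted p of 2.27e-08 by limma and a two-sided exact permutation p of 0.00216, the smallest that the 924 splits of 6 against 6 arrays can give. The files do not say which exons the probe set reads, so the remaining signal in cKO is no measure of intact transcript.

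One control array stood apart from the other soleus controls, and this bears on every result that follows. On soleus control 1, 53.2% of the 15999 genes lay outside the range of the other 5 controls, against 24.5 to 35.9% for each other control measured in the same way. On 106 genes it was more than 1 log2 unit from their mean, against 11 to 45 genes for the others. Shares of this order were also seen outside the soleus controls, each array set against the other 5 of its group. They were 55.8% on quadriceps control 4 (278 genes over 1 log2 unit), 49.6% on quadriceps control 6 and 43.1% on soleus cKO 6. The deviation of soleus control 1 was not evenly spread. On the 341 genes on which the cKO mean and the mean of the other 5 controls differ by at least 1 log2 unit, it lay a median 40.3% of the way to the cKO mean and was displaced toward cKO on 88.0% of them. The other controls lay at -8.87 to -1.48% on the same measure, and the 6 cKO arrays lay at most 7.93% of the way back toward control. The correlation of soleus control 1 with the other controls averaged 0.981 over all genes, against 0.986 to 0.988 for each of the others. Its Neb signal, at 12.04, stayed above all cKO arrays. The quadriceps array with the same genotype and replicate number lay 19.2% of the way to its cKO group, the highest value among the quadriceps controls.

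**Figure D1:**
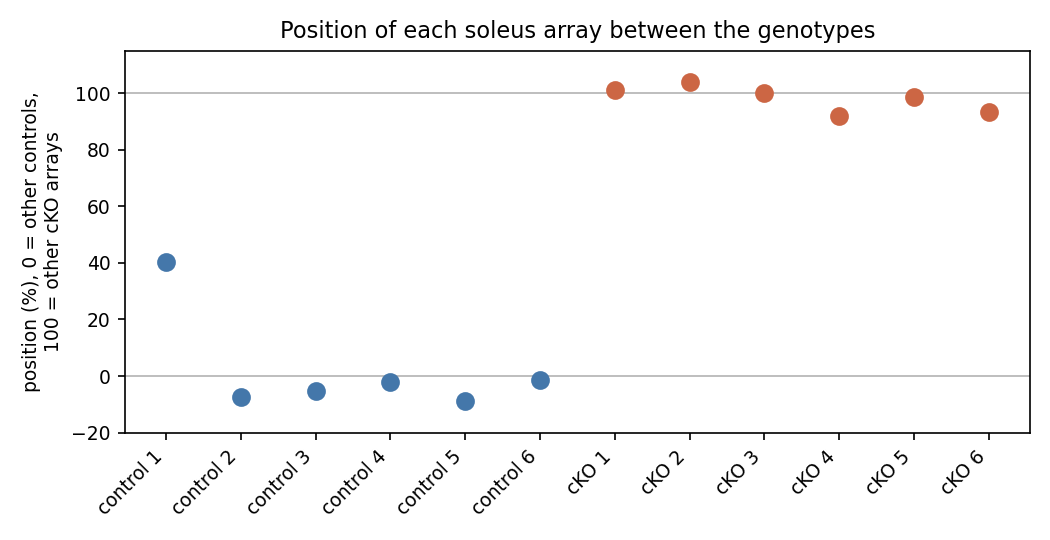
Position of each of the 12 soleus arrays (horizontal axis) between the genotypes, in percent of the way from the mean of the other arrays of the controls (0) to the mean of the other cKO arrays (100), as the median over genes that differ by at least 1 log2 unit with the array left out. Blue points are controls and orange points cKO arrays. Soleus control 1 lies at 40.3, and the other 5 controls lie at or below -1.48.

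The displacement of soleus control 1 differed by gene group. On the mean level of the 12 slow fibre contractile genes it lay 89.4% of the way from the other 5 controls to the cKO arrays, and on the 17 fast fibre contractile genes 69.5%. It lay about midway on the small heat shock genes (56.7%), the glycolysis genes (57.3%) and the embryonic muscle genes (46.9%). On respiratory complex I (-4.01%), the acetylcholine receptor and endplate genes (-1.25%), the imprinted growth genes (-1.58%) and the tendon genes (2.42%) it was among the other controls. On the macrophage genes (-40.8%) and the fibro-adipogenic progenitor genes (-80.0%) it lay on the far side of the controls from cKO. Of 28 gene lists on which the groups differ by at least 0.25 log2 units in mean level, soleus control 1 was outside the other 5 controls on the cKO side in 15, within their range in 11 and outside it on the other side in 2. What set this array apart was not tested.

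**Figure D2:**
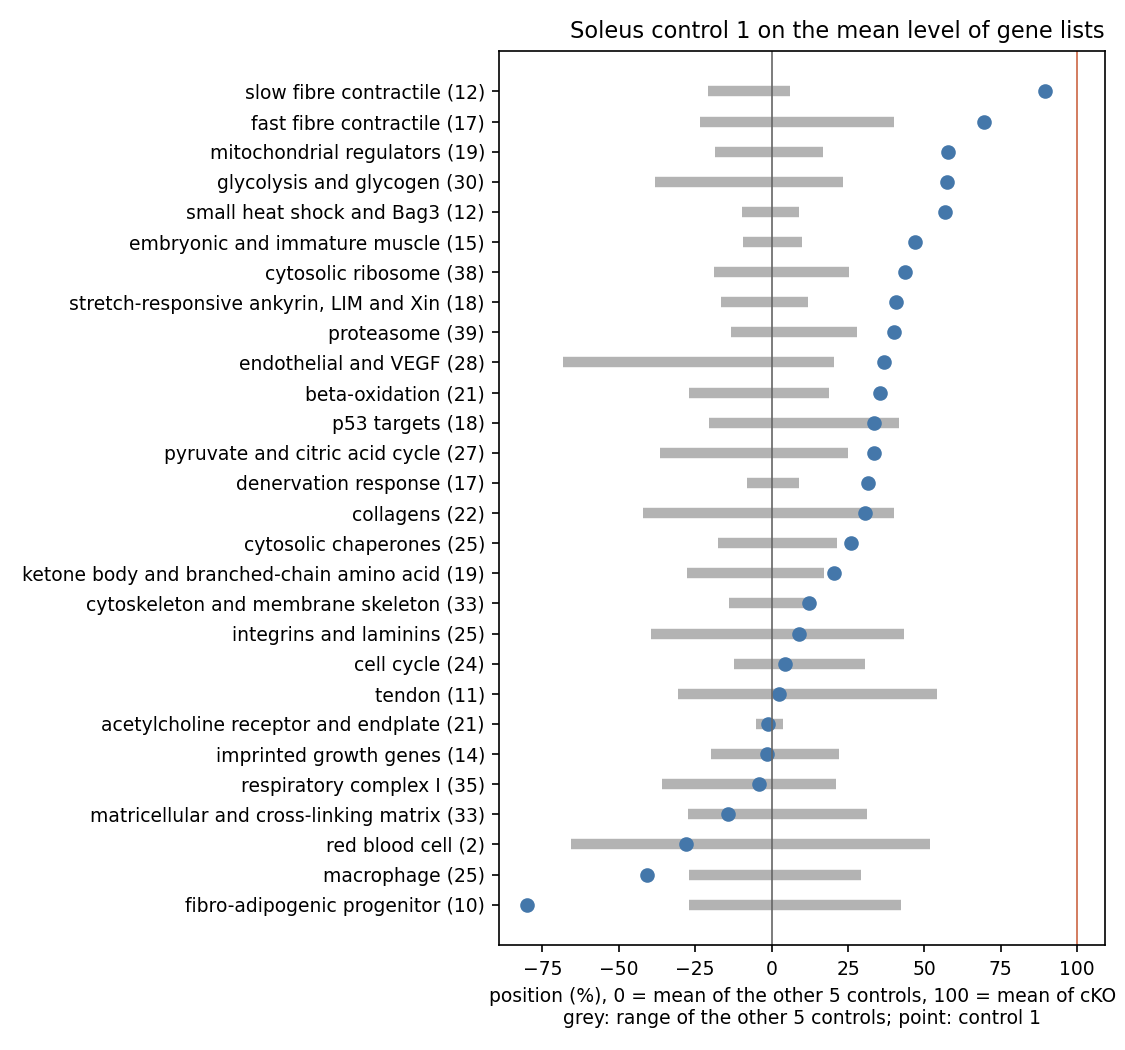
Position of soleus control 1 (blue point) on the mean log2 level of each of 28 gene lists, with the number of genes in brackets, where 0 is the mean of the other 5 controls and 100 the mean of the 6 cKO arrays. Grey bars span the other 5 controls. The point lies to the right of the grey bar in 15 lists, with the slow and fast fibre contractile lists at the top.

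With all 12 arrays, 3694 of the 15999 genes changed (23.1%), of which 2104 rose (13.2%) and 1590 fell (9.94%). Of these, 590 rose and 424 fell at least 1.5-fold. The control and cKO arrays did not overlap at all on 2044 genes (12.8%), 1251 of them higher in cKO (7.82%) and 793 lower (4.96%). Without soleus control 1 the number that changed was 4109 (25.7%), of which 3514 had changed in the same direction with it. Leaving it out lost 180 genes and added 595, 244 higher and 351 lower, and no gene changed direction. Among the 3694 genes, 2866 showed a larger change without it. Soleus control 1 therefore made most of the differences given below smaller, and each is given without it where that ends a call or moves a value that is not near 0 by over 1.5 times. The gene lists and their members were chosen with earlier results of these data known, so counts within lists are descriptions. The shares over all genes, 13.2% higher and 9.94% lower, are the background for these counts.

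The gene with the largest rise was Mybph, which encodes myosin binding protein H, a thick filament protein related to the myosin binding protein C family. It read 5.97, 6.22 and 8.17 on the lowest, median and highest control array and 10.65, 10.88 and 11.06 on the cKO arrays. The highest control was soleus control 1, the other 5 lay between 5.97 and 6.31, and no arrays of the groups overlapped. The change was 4.40 ± 0.23 log2 units (adjusted p = 2.82e-13) and 4.73 without soleus control 1. The promoter of Mybph is shown because no other gene moved further in this muscle. The window, from RefSeq on GRCm38.p6, runs from 250 bases before the start of transcription to 50 after it at chr1:134193198-134193497 on the plus strand. Capitals mark the E-box CAGCTG, the palindromic core that myogenic factors can bind, whose first base lies 79 bases before the start.
Mybph: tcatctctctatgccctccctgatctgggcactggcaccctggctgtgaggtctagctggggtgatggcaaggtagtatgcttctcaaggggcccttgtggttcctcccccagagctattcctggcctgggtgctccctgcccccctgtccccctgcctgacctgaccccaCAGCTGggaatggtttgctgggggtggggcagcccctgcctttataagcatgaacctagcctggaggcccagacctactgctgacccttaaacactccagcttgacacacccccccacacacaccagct
The letters CAGCTG, which read the same on both strands, were in the windows of 37 of the 135 matched genes that rose at least 2-fold (27.4%), of 2388 of the 12582 tested genes with a window and of 18.3% of all 27025 genes in the table. These shares are descriptions of letters and say nothing of binding.

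Other large rises fell on genes of very different roles. Tubb6, a beta-tubulin, read 6.27, 6.78 and 7.16 on control arrays and 8.88, 9.05 and 9.37 on cKO arrays, a change of 2.33 ± 0.13 (adjusted p = 1.35e-12). Camk2d, a calcium- and calmodulin-dependent kinase, read 8.05, 8.16 and 8.69 against 9.95, 10.07 and 10.12, a change of 1.81 ± 0.12 (adjusted p = 1.53e-11). Neither gene had overlapping arrays. Cpne2, a calcium-dependent membrane-binding copine, rose by 2.37. Vash2, a tubulin carboxypeptidase, rose by 2.32, and Uck2, a uridine-cytidine kinase of pyrimidine salvage, by 1.99. Eda2r, a tumour necrosis factor receptor family member of the ectodysplasin pathway, rose by 2.77, and the stress-induced transcription factor gene Atf3 by 3.18 ± 0.37. Nrcam, a neuronal cell adhesion molecule, rose by 2.02, and Th, the rate-limiting enzyme of catecholamine synthesis, by 1.95. Muc15, a membrane mucin, and Epgn, an epidermal growth factor family ligand, were above the dim limit on no control array and on all 6 cKO arrays. Muc15 was at least 6.82-fold higher in cKO, and for Epgn the bound was 8.75-fold.

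**Figure D3:**
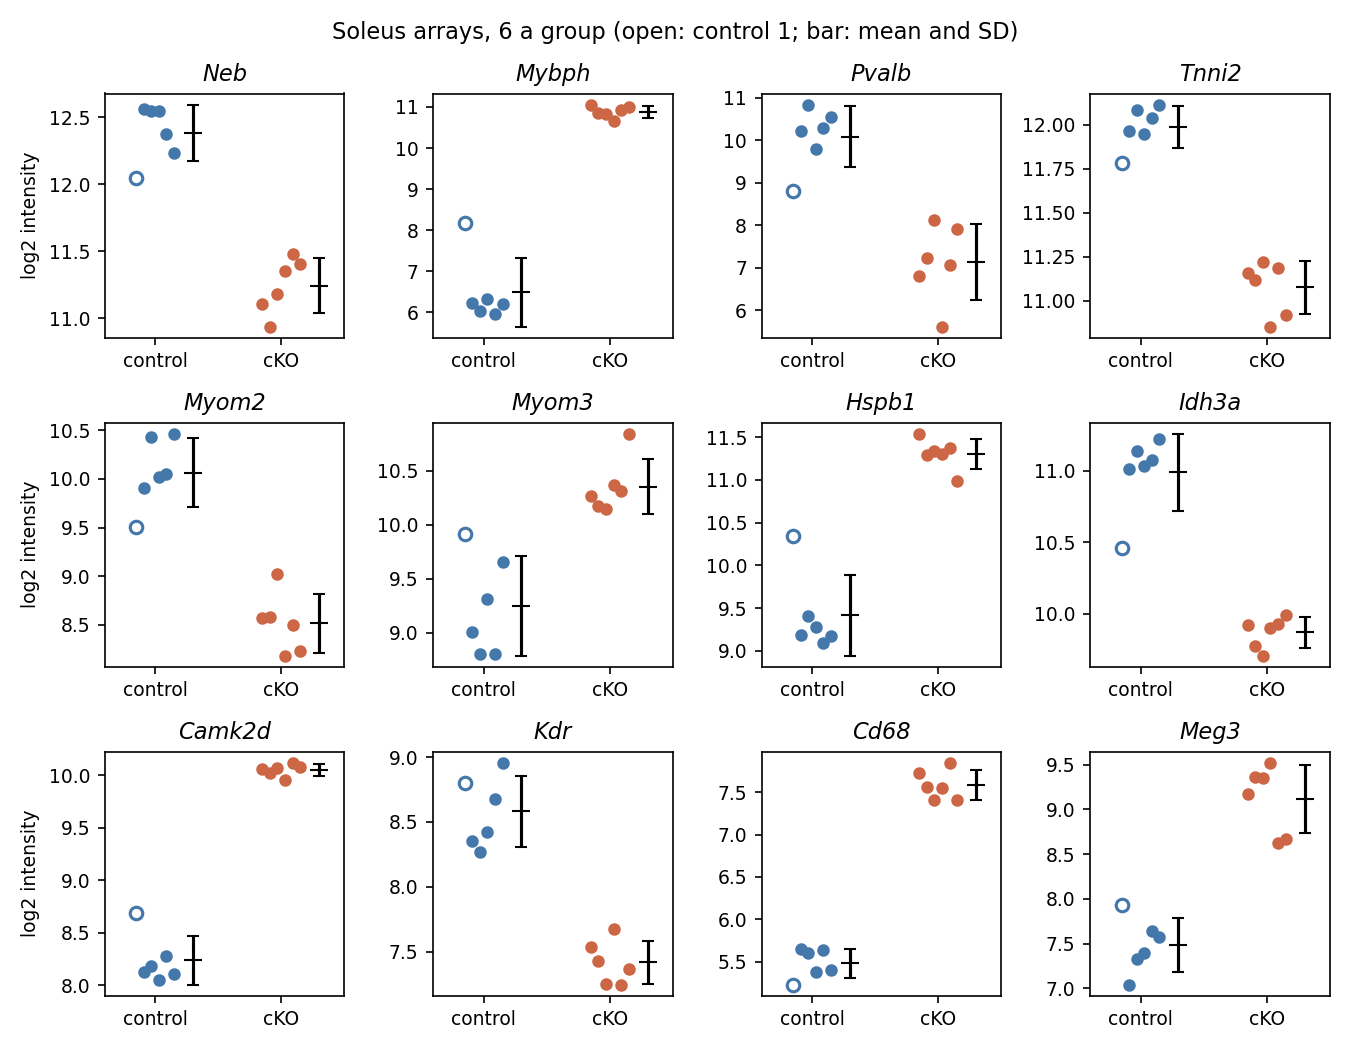
Log2 intensity (vertical axis, scale differing by panel) of 12 genes on the 6 control (blue) and 6 cKO (orange) soleus arrays, with the mean and SD beside each group as a horizontal mark and bar. The open symbol is soleus control 1, which lies toward the cKO arrays on Mybph, Hspb1 and Idh3a and is the lowest array on Cd68. No panel has overlapping groups.

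The genes that fell furthest included many of fast fibres and of metabolism. Ephx2, the soluble epoxide hydrolase, read 7.80, 8.11 and 8.20 on control arrays and 5.72, 6.06 and 6.44 on cKO arrays, and it fell by 2.0 ± 0.17 log2 units (adjusted p = 9.76e-10) with no overlap. Aldh1a1, a retinaldehyde dehydrogenase, fell by 1.82, and Car14, a membrane-bound carbonic anhydrase, fell by 1.64. Padi2, an enzyme that converts arginine to citrulline in proteins, fell by 1.60. Asb14, which encodes an adaptor of a ubiquitin ligase, fell by 1.61. Grb14, an adaptor that restrains insulin receptor signalling, fell by 1.62, and Phyh, the peroxisomal enzyme that starts the breakdown of phytanic acid, fell by 1.31. On all of these the lowest control array lay above the highest cKO array.

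Of the 17 fast fibre contractile genes, 12 fell and none rose, with a median change of -0.56 against -0.02 over all genes tested. In RNA from whole muscle, fewer fibres of a type and less of its RNA per fibre cannot be told apart. Pvalb read 8.82, 10.26 and 10.84 on control arrays and 5.62, 7.15 and 8.12 on cKO arrays, a change of -2.96 ± 0.30 (adjusted p = 2.4e-08). The arrays did not overlap, and both groups spread widely. Myh4, the fast glycolytic myosin heavy chain, was low on soleus control 1 (7.97) and soleus control 4 (7.41) and between 10.87 and 11.78 on the other 4 controls. It lay between 6.87 and 7.38 on 5 cKO arrays and at 9.57 on soleus cKO 6, and its change was -2.56 ± 0.55 (adjusted p = 0.00092). Myh1, the intermediate fast myosin heavy chain, fell by 1.59 and Mybpc2, the fast form of myosin binding protein C, by 2.94. On Mybpc2 the groups overlapped through soleus control 1 alone, which read 6.39 while the other controls read 8.46 to 10.01 and the cKO arrays 5.13 to 7.14. Tnni2, the fast troponin inhibitory subunit, varied far less, with 11.78 to 12.11 on control arrays and 10.85 to 11.22 on cKO arrays, and it fell by 0.91 (adjusted p = 1.43e-09). Myh2, the heavy chain of the fast oxidative fibres of the soleus, showed -0.01 ± 0.12 (adjusted p = 0.971).

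The slow fibre genes moved less. Of 12, 4 rose and 1 fell, and the median change was 0.33. Myh7 read 12.46 to 12.52 on 5 controls, 12.92 on soleus control 1 and 12.91 to 12.99 on the cKO arrays, and its change of 0.40 ± 0.25 did not pass the test (adjusted p = 0.286, and 0.221 without soleus control 1). That SE is pooled with the quadriceps arrays, whose controls spread widely on Myh7. In the 4 fits of the soleus arrays alone the change passed (adjusted p = 1.03e-05 to 0.00203). Tnni1, the slow troponin inhibitory subunit, rose by 0.81 ± 0.21 (adjusted p = 0.00506), with 11.24 to 11.50 on 5 controls, 12.19 on soleus control 1 and 12.24 to 12.39 in cKO. Tnnc1, the slow and cardiac troponin calcium sensor, rose by 0.58 (adjusted p = 0.029), and leaving out any of soleus controls 3 to 6 or soleus cKO 5 ended that call (adjusted p up to 0.0644). The member that fell was Myl3, a slow light chain, by 0.34 (adjusted p = 0.049), and without soleus control 1 its change of -0.28 no longer passed (adjusted p = 0.113), as was so on leaving out 10 of the other 11 arrays. Thus on several slow genes soleus control 1 read at the level of the cKO arrays.

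The myomesins, which cross-link thick filaments in the M-band, moved in opposite directions. Myom2, the form of fast fibres, read 9.51, 10.04 and 10.47 on control arrays and 8.19, 8.54 and 9.02 on cKO arrays, a change of -1.55 ± 0.15. Myom3, a form of intermediate fibres, read 8.80, 9.16 and 9.91 against 10.15, 10.29 and 10.84, a change of 1.11 ± 0.23. Neither gene overlapped, and Myom1, present in all fibres, showed -0.02 (adjusted p = 0.915). Among the 29 regulators of fibre type, 4 rose and 6 fell, shares of the order of the background. Sox6, a repressor of slow fibre genes, fell by 1.12 ± 0.11 (adjusted p = 2.21e-08). Thrb, a thyroid hormone receptor, fell by 1.0, while Prox1, a homeobox factor linked to slow fibres, rose by 0.57. Ppargc1a, a coactivator of mitochondrial and slow fibre genes, ranged from 8.24 to 10.96 on control arrays and from 7.29 to 8.23 on cKO arrays and fell by 1.78 ± 0.31 (adjusted p = 0.00011).

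The promoter windows of 3 of the fast genes are shown because each holds an AT-rich match to the binding site of MEF2, a muscle transcription factor family, at a similar distance before the start. The windows are from RefSeq on GRCm38.p6, at chr11:67199852-67200151 (plus strand) for Myh1, chr11:67237562-67237861 (plus strand) for Myh4 and chr15:78206351-78206650 (minus strand) for Pvalb. Capitals mark the match, whose first base lies 211 bases before the start in Myh1, 182 in Myh4 and 180 in Pvalb.
Myh1: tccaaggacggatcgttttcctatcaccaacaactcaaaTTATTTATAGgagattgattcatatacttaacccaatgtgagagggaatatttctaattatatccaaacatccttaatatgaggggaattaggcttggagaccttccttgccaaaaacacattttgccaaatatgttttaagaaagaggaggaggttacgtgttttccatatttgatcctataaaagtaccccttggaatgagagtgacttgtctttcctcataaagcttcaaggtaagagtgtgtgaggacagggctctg
Myh4: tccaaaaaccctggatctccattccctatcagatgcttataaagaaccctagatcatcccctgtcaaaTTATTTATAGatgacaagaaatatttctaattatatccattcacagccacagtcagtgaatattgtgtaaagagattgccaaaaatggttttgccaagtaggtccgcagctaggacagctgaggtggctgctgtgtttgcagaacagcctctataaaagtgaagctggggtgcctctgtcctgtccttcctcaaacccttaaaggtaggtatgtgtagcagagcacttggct
Pvalb: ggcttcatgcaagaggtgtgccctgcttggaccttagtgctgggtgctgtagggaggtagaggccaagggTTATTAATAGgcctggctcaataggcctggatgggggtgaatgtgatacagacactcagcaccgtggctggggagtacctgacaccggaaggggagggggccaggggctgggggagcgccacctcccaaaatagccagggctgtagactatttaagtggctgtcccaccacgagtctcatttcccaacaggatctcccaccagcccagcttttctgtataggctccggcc
Searched on both strands, the MEF2 pattern was in the windows of 10 of the 87 matched genes that fell at least 2-fold (11.5%) and of 7 of the 135 that rose at least 2-fold (5.19%). It was in 2.31% of the 12582 tested genes with a window and in 3.70% of all 27025 genes. The letters TTTATA within the matches of Myh1 and Myh4 are also those of TATAAA on the other strand. The other fallen genes with a match were Mylk4, Klhl33, Asb14, Pank1, Rasgrp3, Sox6 and Fastkd1, with matches from 30 (Asb14) to 237 (Fastkd1) bases before the start. The 3 genes shown were picked from the 10, and their similar distance is not shared by all of the 10. The shares of the MEF2 pattern are descriptions of letters and say nothing of binding.

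Of 15 genes of embryonic and immature muscle, 13 rose and none fell, with a median change of 1.14. Myh3, the embryonic myosin heavy chain, read 6.65 to 7.68 on 5 controls, 9.80 on soleus control 1 and 11.24 to 12.06 on cKO arrays, a change of 3.93 ± 0.40 (4.38 without soleus control 1). Myh8, the perinatal heavy chain, rose by 1.14 ± 0.17 and Tnnt2, the cardiac and embryonic troponin T, by 1.0. Actc1, the cardiac actin of developing muscle, rose by 1.60. On Myh8, at 6.78, soleus control 1 was among the other controls (6.67 to 7.16). Of 20 myogenic regulator and satellite cell genes, 5 rose and 3 fell, with a median of 0.08. Myog, a transcription factor of differentiation, rose by 1.81 ± 0.18, Myf6 by 1.21 and Myod1 by 0.71. Mymk, which encodes myomaker, a membrane protein needed for myoblast fusion, read 4.95, 5.50 and 5.80 on control arrays and 6.63, 6.99 and 7.66 on cKO arrays, a change of 1.61. Vcam1, an adhesion molecule, rose by 0.60, and the laminin receptor subunit gene Itga7 rose too. Not all of the genes from Myog to Itga7 are members of the list of 20. Eya1, a transcriptional coactivator of muscle formation, fell by 0.86 ± 0.15 (adjusted p = 0.000124). Id1, an inhibitor of myogenic factors, fell by 0.41 (adjusted p = 0.0384, and up to 0.126 on leaving out any of soleus controls 2, 4 and 5 and soleus cKO 1 to 4) and Mef2a by 0.26 (adjusted p = 0.0399, and up to 0.112 on leaving out any of soleus controls 2 to 5 and soleus cKO 1, 2, 3, 5 and 6). The calls of Id1 and Mef2a were also lost with the soleus arrays fitted alone. Pax7, the marker of satellite cells, showed 0.23 ± 0.10 (adjusted p = 0.109) and 0.29 without soleus control 1 (adjusted p = 0.0355).

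Of 21 acetylcholine receptor and endplate genes, 8 rose and 1 fell, and the subunits of the receptor itself did not move alike. Chrnb1, the beta subunit, read 6.59, 6.82 and 7.08 on control arrays and 8.18, 8.29 and 8.50 on cKO arrays, a rise of 1.48 ± 0.12 (adjusted p = 5.37e-10). Chrnd, the delta subunit, rose by 0.74, Chrne, the adult subunit, by 0.61 and Chrng, the fetal subunit, by 0.36 (adjusted p = 0.0124). Chrna1, the subunit that forms most of the ligand site, showed 0.01 ± 0.10 (adjusted p = 0.97), and Musk, the endplate kinase, 0.36 ± 0.20 (adjusted p = 0.22) and 0.20 without soleus control 1. Of 17 genes known to respond to denervation, 10 rose and 1 fell. Runx1, a transcription factor of denervated muscle, rose by 1.22 ± 0.11, and Uchl1, a neuronal ubiquitin hydrolase, by 2.81. Dach2, a repressor of the myogenin programme, fell to the dim limit and was at least 1.77-fold lower.

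Among 30 genes of the thin filament and Z-disc, 12 rose and 7 fell, with a median of 0.13. Several of them are, like Neb, genes of human nemaline myopathy, and these did not move in one direction. Klhl40, a kelch protein that stabilises thin filament proteins, read 6.97, 7.06 and 8.06 on control arrays and 8.44, 8.70 and 8.91 on cKO arrays, a change of 1.45 ± 0.14 (adjusted p = 2.41e-08). Its highest control was again soleus control 1. Klhl41, a related kelch protein, rose by 0.57. Kbtbd13, a thin-filament-binding member of the same family, fell by 1.09, Lmod3, a leiomodin that nucleates actin filaments, by 0.32 and Tmod4, the pointed-end cap tropomodulin of skeletal muscle, by 0.36. Lmod2 showed 0.24 ± 0.10 (adjusted p = 0.0957, and 0.0245 to 0.0354 in fits of the soleus arrays alone). Flnc, the muscle filamin of the Z-disc, rose by 0.93, Pdlim3, a PDZ-LIM protein that binds alpha-actinin, by 0.92 and Ldb3, another of the same family, by 0.49.

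Genes that answer to mechanical strain rose, 11 of 18 with 1 lower and a median of 0.41. Ankrd1, an ankyrin repeat protein that binds titin, read 7.44, 7.96 and 8.20 on control arrays and 10.59, 10.95 and 11.83 on cKO arrays, a change of 3.16 ± 0.28 (adjusted p = 4.81e-09). Its relative Ankrd2, the form abundant in slow muscle, rose by 0.79, while Ankrd23, the third member of the family, was the gene that fell, by 0.65 with no overlap. Csrp3, the muscle LIM protein, rose by 1.5 ± 0.18. Xirp1 and Xirp2, the actin-binding Xin repeat proteins of sites of damage and junctions, rose by 1.42 and 0.87. On Ankrd1 soleus control 1 (7.86) lay among the other controls, whereas on Csrp3 it was the highest of them (10.95).

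Chaperones of the myofibril rose with these genes. Of 12 small heat shock and Bag3 complex genes, 9 rose and none fell. Hspb1, a small heat shock protein that binds filamin and actin, read 9.09, 9.23 and 10.35 on control arrays and 10.99, 11.32 and 11.54 on cKO arrays, a change of 1.89 ± 0.15 (adjusted p = 7.19e-10) with soleus control 1 the highest control. Hspb8, the partner of Bag3 in the removal of damaged filamin, rose by 1.45 and Bag3 itself by 0.31 (adjusted p = 0.0219, but 0.0651 without soleus control 5 and 0.0540 without soleus cKO 6). Of 25 cytosolic chaperones, 15 rose and 1 fell. Hspa1a, the inducible form of Hsp70, rose by 1.35, and Cct3, a subunit of the actin- and tubulin-folding chaperonin, by 0.62 ± 0.10. Unc45b, the myosin chaperone, showed -0.10 (adjusted p = 0.557). In the endoplasmic reticulum, 4 of 19 chaperones rose, and of 25 genes of the integrated stress response 4 rose and 5 fell. Atf4, the transcription factor at the centre of that response, showed 0.01 ± 0.09 (adjusted p = 0.944), and its targets Ddit3 and Chac1 fell by 0.37 and 0.70.

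The proteasome, which degrades ubiquitin-tagged proteins, rose across many of its subunits, 23 of 39 with none lower and a median of 0.31. Psmd4, its ubiquitin receptor, read 7.67 to 8.26 on control arrays and 8.56 to 8.77 on cKO arrays and rose by 0.78 ± 0.10. Psmc4, an ATPase of the regulatory particle, rose by 0.77. The ubiquitin ligases of atrophy moved the other way. Trim63, which encodes MuRF1, fell by 0.50 (adjusted p = 0.0314) and Fbxo32, which encodes atrogin-1, by 0.58 (adjusted p = 0.00625), with overlapping arrays on both. The call of Trim63 was lost without soleus control 2 or 3 or soleus cKO 1, 4 or 5 (adjusted p up to 0.107). The list of ligases and FoxO genes as a whole had 6 higher and 6 lower of 25. Map1lc3a, an autophagosome membrane protein, rose by 0.92 and Sqstm1, the autophagy receptor p62, by 0.37, within a list of 25 autophagy genes of which 7 rose and 2 fell.

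Genes of protein synthesis rose in the cytosol and fell in the mitochondria. Of 38 cytosolic ribosomal protein genes with a tested probe set, 23 rose and none fell, with a median of 0.33. Rpl19 read 10.29 to 10.91 on control arrays and 10.96 to 11.25 on cKO arrays, a change of 0.61 ± 0.09. Many ribosomal protein genes have processed pseudogenes nearly identical to them, so the source of their signal is uncertain. Eef1a1, the elongation factor of developing muscle that gives way to another form after birth, rose by 0.77. Of 35 mitochondrial ribosomal proteins, 13 fell and 3 rose, with Mrpl45 at -0.49 and Mrps9 at -0.44 among those lower and Mrps12 at 0.44 among those higher.

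Mitochondrial energy genes fell in every class examined. In complex I, the entry point of the respiratory chain, 23 of 35 subunits fell and none rose, and in complexes II to V 20 of 41 fell and none rose. Sdhb, the iron-sulfur subunit of succinate dehydrogenase, read 10.95 to 11.07 on control arrays and 10.40 to 10.54 on cKO arrays and fell by 0.53 ± 0.07 (adjusted p = 9.3e-07). Among the 27 pyruvate and citric acid cycle genes, 20 fell and none rose. Idh3a, the catalytic subunit of the isocitrate dehydrogenase of the cycle, read 10.46, 11.05 and 11.23 on control arrays and 9.71, 9.91 and 9.99 on cKO arrays, and it fell by 1.12 ± 0.11 (adjusted p = 1.33e-08). Suclg1, a subunit of succinyl-CoA ligase, fell by 0.83 and Pdha1, which feeds pyruvate into the cycle, by 0.86. None of these genes had overlapping arrays.

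The enzymes that burn fatty acids, ketone bodies and branched-chain amino acids had the highest share of lower genes. Of 21 genes of beta-oxidation, 18 fell and none rose, with a median of -0.63, and Acadm, the medium-chain dehydrogenase, fell by 0.70 ± 0.09. Of 19 ketone body and branched-chain genes, 16 fell and none rose. Bdh1, the hydroxybutyrate dehydrogenase, read 7.59, 8.53 and 8.72 on control arrays and 5.51, 6.15 and 7.31 on cKO arrays, and it fell by 1.98 ± 0.32. Oxct1, which activates ketone bodies, fell by 0.76, Acat1, which completes their breakdown, by 0.85 and Dbt, of the branched-chain dehydrogenase complex, by 0.82. Of 24 genes of fatty acid uptake and lipid droplets, 8 fell and none rose, with a median of -0.22. Lpl, the lipase that frees fatty acids from circulating triglyceride, fell by 0.93 ± 0.13, Cd36, a fatty acid translocase, by 0.68 and Slc27a1, a fatty acid transport protein, by 0.89. Glycolysis did not move the other way, with 21 of 30 genes lower and 2 higher. Hk2, the hexokinase of muscle, fell by 0.75 and Phkg1, the catalytic subunit of phosphorylase kinase, by 1.02.

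The glucose uptake branch fell in part. Tbc1d4 and Tbc1d1, the GTPase-activating proteins through which insulin and contraction move the glucose transporter, fell by 1.16 and 0.81, and Slc2a4, that transporter, by 0.26 (adjusted p = 0.0423). The call of Slc2a4 was lost on leaving out any 1 of 6 arrays, soleus controls 2, 3 and 6 and soleus cKO 3, 4 and 5 (adjusted p up to 0.114). The subunits of AMPK, the kinase that senses low energy, were divided. Prkaa2, a catalytic subunit, fell by 0.65 ± 0.13, while Prkab2, a scaffolding subunit, read 7.58, 7.69 and 7.90 on control arrays and 8.27, 8.54 and 8.66 on cKO arrays and rose by 0.80 ± 0.11. The mean level of the fast fibre list moved beside these metabolic groups, from 10.58 to 11.48 on control arrays to 10.54 and lower on cKO arrays, and its part in the metabolic changes was not tested.

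**Figure D4:**
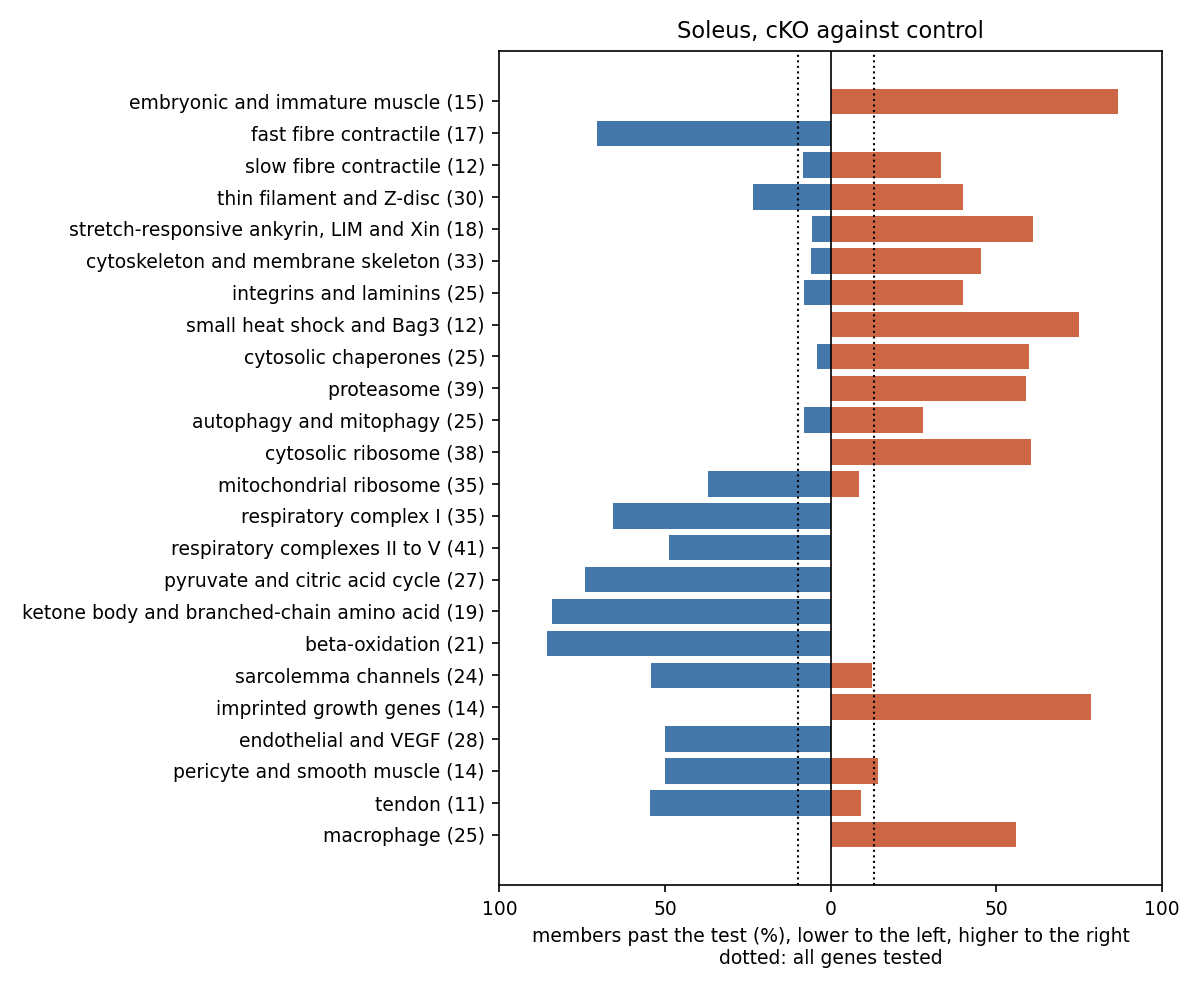
Share of tested members of 24 gene lists (number in brackets) that rose (orange, to the right) or fell (blue, to the left) in soleus cKO against control, in percent, by limma with an adjusted p under 0.05. Dotted lines mark the shares over all 15999 genes, 13.2% higher and 9.94% lower. The 24 lists were selected by hand from 59, and several lists near the dotted lines, such as immediate early and circadian clock genes, are not drawn. Some lists far from the dotted lines are not drawn either. Among them are glycolysis and glycogen (21 of 30 lower), mitochondrial regulators (9 of 19 lower) and denervation response (10 of 17 higher). The mitochondrial and fatty acid lists extend to the left, and the embryonic, imprinted, chaperone, proteasome and cytosolic ribosome lists to the right.

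Ion channels of the muscle surface fell more often than they rose, 13 against 3 of 24. Scn4b, an auxiliary subunit of voltage-gated sodium channels, read 8.76, 8.82 and 9.12 on control arrays and 7.18, 7.48 and 7.76 on cKO arrays, and it fell by 1.40 ± 0.11 (adjusted p = 5.59e-10). Clcn1, the chloride channel that stabilises the resting potential, fell by 0.75 ± 0.10. Kcng4 and Kcna7, potassium channel subunits, fell by 1.49 and 0.88, and Aqp4, the water channel of the membrane, by 0.87. Kcnn3, the apamin-sensitive potassium channel known from denervated muscle, rose by 1.24 ± 0.20. The arrays of the groups did not overlap on these genes except for Aqp4.

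Of 34 calcium handling and triad genes, 11 rose and 7 fell. The inhibitors of the calcium pump of the sarcoplasmic reticulum moved in both directions. Sln, which encodes sarcolipin, read 4.59 to 5.51 on 5 controls, 6.53 on soleus control 1 and 7.36 to 7.49 on cKO arrays, a rise of 2.08 ± 0.23 (adjusted p = 1.1e-07). Mrln, myoregulin, fell by 0.67 and Pln, phospholamban, by 0.69. Atp2a1, the fast form of the pump, fell by 0.59 ± 0.07, and Atp2a2, the slow form, showed 0.16 ± 0.19 (adjusted p = 0.591). Atp2a2 passed under 1 alternative only, the soleus arrays fitted alone without soleus control 1 (adjusted p = 0.0171). Ryr3, a calcium release channel of immature muscle, read 4.28, 4.37 and 5.22 on control arrays and 6.14, 6.40 and 6.59 on cKO arrays, a rise of 1.87 ± 0.12 (adjusted p = 1.53e-11). Casq2, the slow and cardiac calsequestrin, rose by 0.90, and Cacnb1 and Bin1, proteins of the triad and its tubules, by 0.67 and 0.61.

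The skeleton of the membrane and its links to the matrix rose. Of 33 cytoskeletal genes, 15 rose and 2 fell, and of 25 integrins and laminins 10 rose and 2 fell. Dsp, desmoplakin, a protein of desmosomes, read 4.43, 4.73 and 5.13 on control arrays and 7.49, 8.16 and 8.70 on cKO arrays, a change of 3.39 ± 0.24 (adjusted p = 7.79e-11) with no overlap. Pkp2, a partner of desmoplakin, rose by 1.42. Nes, nestin, an intermediate filament protein of immature muscle and junctions, rose by 1.73 and Tln1, talin, which ties integrins to actin, by 0.70 ± 0.09. Among integrins, Itga9 rose by 1.80, Itga5, the fibronectin receptor subunit, by 1.37, and Itga7, the laminin receptor subunit of mature muscle, by 1.01. Sntb1, a syntrophin of the dystrophin complex, rose by 2.13, and Nos1, the nitric oxide synthase that binds to this complex, read 5.20 to 7.12 on control arrays and 4.25 to 4.75 on cKO arrays and fell by 1.52 ± 0.26. Dmd, dystrophin, showed 0.24 (adjusted p = 0.203, and 0.00863 to 0.0192 in fits of the soleus arrays alone).

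In the extracellular matrix, 15 of 33 matricellular and cross-linking genes rose and 2 fell, and 7 of 22 collagens rose. Postn, periostin, read 9.15, 9.51 and 9.82 on control arrays and 10.91, 11.26 and 11.40 on cKO arrays, a change of 1.74 ± 0.13 (adjusted p = 1.21e-10). Lox and Loxl1, which cross-link collagen and elastin, rose by 1.34 and 1.03, and Mfap5, a microfibril protein, by 1.60. Col8a1, a short-chain collagen, rose by 1.90 ± 0.12 and Col3a1, a fibrillar collagen, by 0.92, whereas Col1a1, the main collagen of tendon and scar, showed -0.15 (adjusted p = 0.529). Cilp, a matrix protein of the cartilage intermediate layer, rose by 2.22. Tendon genes moved in the opposite direction, 6 of 11 lower and 1 higher with a median of -0.67. Kera, keratocan, read 7.59, 8.34 and 8.79 on control arrays and 5.50, 6.65 and 6.92 on cKO arrays, and it fell by 1.88 ± 0.27. Mkx, a transcription factor of tendon cells, and Tnmd, tenomodulin, each fell by 0.67, Fmod, fibromodulin, by 0.72 and Chad, chondroadherin, by 0.82. Scx, the defining tendon factor, showed -0.27 ± 0.14 (adjusted p = 0.183), and the member that rose was Thbs4, by 0.94, which muscle fibres also express. The mean level of the tendon list was 8.16 to 8.59 on control arrays and 7.65 to 8.10 on cKO arrays. That of the fibro-adipogenic progenitor list was 7.83 to 8.16 and 8.23 to 8.41. Their part in the matrix changes was not tested.

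Genes of blood vessels fell, 14 of 28 endothelial and VEGF genes with none higher and a median of -0.30. The number was 9 without soleus control 6, which was the highest control on most of the 28. Vegfa, the main growth factor of capillaries, read 9.30, 9.44 and 9.80 on control arrays and 8.10, 8.49 and 8.88 on cKO arrays, and it fell by 1.06 ± 0.13 (adjusted p = 5.7e-07). Kdr, its main signalling receptor, read 8.27, 8.55 and 8.96 against 7.24, 7.40 and 7.67 and fell by 1.17 ± 0.20. Neither overlapped, and soleus control 1 was inside the other controls on both genes (9.32 and 8.80). Flt1, the other receptor, fell by 0.68, Emcn, endomucin of capillaries and veins, by 0.71 and Tek, the angiopoietin receptor, by 0.61. Pecam1, an adhesion protein of all endothelium, fell by 0.37 (adjusted p = 0.0212, but 0.0719 without soleus control 6, and also lost without soleus cKO 6), and Cdh5, its cadherin, showed -0.30 ± 0.13 (adjusted p = 0.103). Epas1, a hypoxia-inducible factor abundant in endothelium, fell by 0.70. The mean level of the endothelial list was 7.34 to 7.78 on control arrays and 6.97 to 7.15 on cKO arrays. Around the vessels, 7 of 14 pericyte and smooth muscle genes fell and 2 rose, with Myh11, the smooth muscle myosin, at -0.66, Rgs5, a pericyte marker, at -0.50, and Cspg4, another, at 0.62.

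Macrophage genes rose, 14 of 25 with none lower and a median of 0.52. Cd68, a lysosomal protein of macrophages, read 5.23, 5.50 and 5.65 on control arrays and 7.40, 7.56 and 7.85 on cKO arrays, a change of 2.10 ± 0.12 (adjusted p = 2.76e-12). The other defining markers moved less. Mpeg1, a pore-forming protein, rose by 0.93, Lyz2, lysozyme, by 0.79, Adgre1, a surface receptor of theirs, by 0.52 and Csf1r, the receptor for their growth factor, by 0.49. Mrc1, the mannose receptor, showed 0.09 ± 0.14 (adjusted p = 0.693), and Ptprc, the CD45 antigen of all leukocytes, 0.14 ± 0.12 (adjusted p = 0.431). Without soleus control 1 these changes were 0.02 and 0.08. The mean level of the list was 5.51 to 5.83 on control arrays, with soleus control 1 the lowest, and 5.84 to 6.29 on cKO arrays. Of 23 antigen presentation and interferon genes, 6 rose and none fell, with a median of 0.05. Among the 6 were genes of MHC class II, which presents antigen. H2-Ab1 rose by 1.29 ± 0.18, H2-Aa by 1.24, Cd74, the invariant chain, by 1.09 and H2-Eb1 by 0.88. None of 9 neutrophil, T and B cell genes changed, and their mean level was 4.23 to 4.43 on control arrays and 4.23 to 4.46 on cKO arrays, with Cd3e of T cells at 0.02 ± 0.10 (adjusted p = 0.909). None of 10 Schwann cell and nerve genes changed either.

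Growth control was divided between ligands, antagonists and receptors. Fst, follistatin, which binds and blocks activins and myostatin, read 6.50, 6.73 and 7.38 on control arrays and 7.60, 7.99 and 8.61 on cKO arrays, a rise of 1.21 ± 0.15. Gdf11, a close relative of myostatin, rose by 1.57 ± 0.17. Inhba, which encodes an activin subunit, fell by 0.74, Acvr2b, the receptor of these ligands, by 0.53 and Smad3, which carries their signal, by 0.84. Mstn, myostatin itself, was near the dim limit, at 3.31 on soleus control 1, at 4.28 to 4.76 on the other controls and at 3.20 to 3.81 on cKO arrays. Its adjusted p was 0.0285 and up to 0.0700 on leaving out soleus control 2, 3 or 5 or soleus cKO 1 or 6. Igf1 rose by 0.55 and Igf2, a fetal growth factor, by 0.86 ± 0.14. Of 24 cell cycle genes, 9 rose. Mcm6, a helicase subunit that licenses replication, rose by 1.78 and Mki67, a marker of cycling cells, by 1.01, with soleus cKO 6 (4.63) inside the control range.

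Imprinted growth genes, which are read from one parental chromosome and are mostly silenced after birth, rose in 11 of 14, with none lower and a median of 0.78. Peg3, a zinc finger gene of stem and progenitor cells, read 6.69, 6.93 and 7.29 on control arrays and 8.79, 9.07 and 9.42 on cKO arrays, a change of 2.11 ± 0.16 (adjusted p = 1.83e-10). Mest rose by 1.69, Zim1 by 1.47, Cdkn1c, an inhibitor of the cell cycle, by 1.21, Peg10 by 1.10 and Igf2r, which clears Igf2, by 0.99.

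One imprinted region held long noncoding RNAs and many microRNA genes that rose. It was chosen after its values were seen, so its counts are a description. The region from Dlk1 to Dio3 (chr12:109452485-110281097, GRCm38.p6) is read from the maternal chromosome for its noncoding RNAs and from the paternal one for its proteins, and 26 of its genes were tested. Of these 10 rose (38.5%) and none fell. Meg3, the long noncoding RNA at the head of the maternal transcripts, read 7.04, 7.48 and 7.93 on control arrays and 8.63, 9.26 and 9.52 on cKO arrays, a change of 1.63 ± 0.18 (adjusted p = 1.94e-07). Rian, a noncoding RNA further along, rose by 0.53 (adjusted p = 0.0425, and up to 0.130 on leaving out soleus control 2, 3, 4 or 6 or soleus cKO 1, 3 or 4) and DQ267102 by 0.66 ± 0.12. The call of Rian was also lost with the soleus arrays fitted alone, with or without soleus control 1. Among the protein genes, Dio3, the enzyme that inactivates thyroid hormone, rose by 0.42 (adjusted p = 0.00762), while Dlk1 and Rtl1 showed -0.03 (adjusted p = 0.866) and 0.24 (adjusted p = 0.126). Rian and Dio3 were each above the dim limit on 1 of 6 control arrays. Among 20 microRNA genes of the region, 6 rose and none fell, whereas of 132 microRNA genes elsewhere 1 rose and 17 fell. Over all genes tested 13.2% rose and 9.94% fell. Soleus cKO 4 was the highest cKO array on all 6, and also on Meg3, Rian and DQ267102. Its largest lead was on Mir337, at 6.20 with the nearest array at 5.02. Soleus cKO 5 and 6 were the lowest cKO arrays on each of these genes, so the 6 rises are not separate observations.

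The mature microRNAs of these 6 genes are printed because they are what the genes would yield, from the RefSeq table on GRCm38.p6, with the seed (bases 2 to 8) in capitals. The array reads precursor or host transcript, and mature microRNA was not measured.
mmu-miR-337-5p: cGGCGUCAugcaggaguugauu
mmu-miR-337-3p: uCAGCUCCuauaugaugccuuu
mmu-miR-127-5p: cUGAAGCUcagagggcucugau
mmu-miR-127-3p: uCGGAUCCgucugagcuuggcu
mmu-miR-300-5p: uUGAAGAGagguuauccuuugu
mmu-miR-300-3p: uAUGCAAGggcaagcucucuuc
mmu-miR-487b-5p: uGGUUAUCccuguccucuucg
mmu-miR-382-5p: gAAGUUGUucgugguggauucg
mmu-miR-382-3p: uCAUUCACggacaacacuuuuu
mmu-miR-485-3p: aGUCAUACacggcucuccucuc
The 10 sequences carry 10 different seeds, and all 20 microRNA genes of the region matched the table. Mir382 read 3.43, 3.72 and 3.77 on control arrays and 3.93, 4.39 and 5.39 on cKO arrays, a change of 0.80 ± 0.17 (adjusted p = 0.000681). Mir485 rose by 0.54 ± 0.14, Mir300 by 0.61, Mir337 by 0.57 and Mir127 by 0.34 (adjusted p = 0.044). The call of Mir127 was lost on leaving out any of soleus controls 2, 4, 5 and 6 and soleus cKO 1 to 4 (adjusted p up to 0.143), and that of Mir337 without soleus control 2 (0.0585). Both calls were also lost with the soleus arrays fitted alone. This held as well when those fits left out soleus control 1 or included age (adjusted p up to 0.0660 for Mir337). Mir487b was above the dim limit on no control array and on 3 cKO arrays, so its rise is given only as at least 1.02-fold. Mir300 was above the limit on 3 control arrays and Mir382 on 4. Arrays did not overlap on Mir382, Mir485 and Mir487b, and they overlapped on the other 3. The dim limit of the arrays was 3.51 to 3.72, so several of these levels lie at the edge of measurement.

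**Figure D5:**
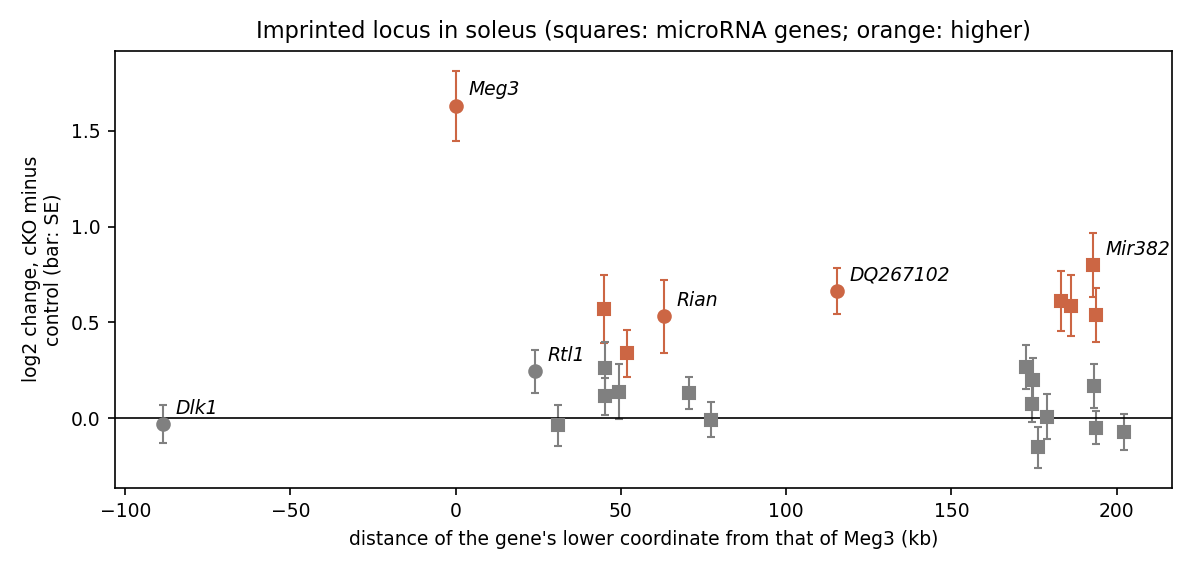
Log2 change in soleus, cKO minus control, with its SE (vertical axis) against the distance in kb of each gene's lower coordinate from that of Meg3 (horizontal axis) on chromosome 12, for the tested genes within 300 kb. Squares are microRNA genes, circles other genes, and orange marks an adjusted p under 0.05 by limma. The value of Mir487b rests on control levels not above the dim limit. Meg3 at 1.63 stands above all others, and Dio3 (0.42) lies beyond the right edge and is not drawn.

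Whether the soleus changed differently from the quadriceps was tested for each gene as the soleus change minus the quadriceps change in the same limma fit. The difference passed for 1966 of the 15999 genes (12.3%), with the soleus change the higher on 783 (4.89%) and the lower on 1183 (7.39%), and for 2952 when same-numbered muscles of 1 genotype, which deviated together, were taken as 1 animal in a random block. The labels do not name animals and give cKO muscles number 4 different ages, and with these as separate animals the number was 2932. The soleus change was the higher on 39.8% of these genes on the deposited scale and on 54.4, 51.3 and 48.0% of those that passed after median, 75th percentile and quantile scaling, so the balance of directions depends on the scaling. Mybph was the gene with the largest such difference upward, with 4.40 in soleus and 0.39 in quadriceps (difference 4.0 ± 0.32, adjusted p = 1.21e-08). Gamt, which makes creatine, changed by 1.82 in soleus and 0.07 in quadriceps (adjusted p of the difference 3.42e-05). Popdc2, a membrane protein that binds cyclic AMP, changed by 1.46 and 0.31, and Pdlim3 by 0.92 and 0.09. Prkab2 rose by 0.80 in soleus and fell by 0.93 in quadriceps, a difference of 1.73 ± 0.16 (adjusted p = 5.21e-08). Aimp2, a scaffold of the aminoacyl-tRNA synthetase complex, likewise changed by 0.68 in soleus and -1.24 in quadriceps. Of the 39 proteasome genes, 14 had a higher change in soleus and 1 a lower one.

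On other groups the soleus change was the lower. It was so on 10 of the 12 slow fibre genes and higher on none, with Myh7 at 0.40 in soleus and 2.33 in quadriceps (difference -1.93, adjusted p = 0.000769). Myh7 already stood far higher on the soleus controls than on the quadriceps controls. Whether that starting level, high on the array scale, bounds its change in soleus was not tested. Myh2 showed -0.01 and 1.01 (difference -1.02, adjusted p = 0.000169), and Pvalb -2.96 and -0.66 (difference -2.30, adjusted p = 0.000613). Chrna1 showed 0.01 in soleus and 1.77 in quadriceps (difference -1.76 ± 0.15, adjusted p = 1.35e-08), Chrng 0.36 and 1.87, and Runx1 1.22 and 2.88. Slc5a3, a transporter of myo-inositol, fell by 1.58 in soleus and showed 0.48 in quadriceps (difference -2.06, adjusted p = 2.45e-05). Lpl showed -0.93 and 0.11, Cd36 -0.68 and 0.07, Epas1 -0.70 and -0.01, and Myh11 -0.66 and 0.11, with each difference past the threshold. The difference was below the threshold for Kdr (adjusted p = 0.0898) and for Neb (0.31 ± 0.16, adjusted p = 0.215). Of 23 antigen presentation and interferon genes, 9 had a lower change in soleus and none a higher one, and Cxcl10, an interferon-induced chemokine, showed 0.13 in soleus and 2.36 in quadriceps. Ostn, osteocrin, a secreted muscle peptide, showed -0.53 ± 0.21 in soleus (adjusted p = 0.0641) and 2.65 in quadriceps, a difference of -3.18. None of the 26 tested genes of the Dlk1 to Dio3 region differed between the muscles.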

How the data were processed

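RNA of soleus and quadriceps from control and nebulin cKO mice was measured on 24 Affymetrix arrays, 6 for each muscle and genotype. The intensity values deposited by the authors are on a linear scale and were made with Affymetrix Expression Console and RMA, with mm10 as the build, per the submitters' processing notes. Neither software versions nor settings were given in the sources used here. No pair of arrays was identical. The replicates are described as biological in the labels.

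Here log2 was taken. Of 35557 probe sets, 21789 had 1 gene symbol in the platform annotation, 1621 several and 12147 none, and for the 999 genes with over 1 probe set the one with the highest mean level over all arrays was kept. Of 19938 genes, 15999 lay above the 30th percentile of the array (3.51 to 3.72) on at least 6 arrays and were tested. Symbols were updated through Entrez numbers. All 24 arrays were fitted in 1 model of 4 group means with limma 3.58.1 in R 4.3.3, two-sided, with Benjamini-Hochberg adjustment over all genes tested. The fit was tested on simulated data.

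Genes were named from sets given by a rule, and not every gene of these sets is named. The sets held the 30 largest changes and 15 smallest p each way. They also held up to 8 members of each gene list by p, and other members with their value. The 15 largest differences between muscles each way were added. Last came the 15 genes each way on which soleus control 1 lay farthest from the other controls, and 9 genes of this part are named. Members and lists were chosen with earlier results of these data known. Same-numbered muscles of 1 genotype deviated together, with correlations of 0.155 to 0.450, all over 0.1, and were taken as 1 animal in an alternative, although the labels name no animals and give quadriceps cKO 4 and soleus cKO 4 different ages (40 and 41 days). That pair was split in an alternative added after the data were seen. Same-numbered control and cKO arrays of soleus, which are different mice, had correlations of 0.04 to 0.32, not all over 0.1, and were not paired. Alternatives left out each array, used soleus alone, blocks, age, other scalings, filters, probe set rules, array weights and a robust prior. Where no array of a group lay above the dim limit, folds are lower bounds against that limit.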

Additional observations from a re-analysis of the deposited data

Results flagged for a closer look

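Of 452 sets of 6 arrays, 1 for each gene named in the text and each soleus group, 45 held 1 array that lay far from the other 5, with a gap to its nearest neighbour above Dixon's 95% critical value for its share of the whole range of the set. Chance gives about 1 such set in 20. Soleus control 1 was that array in 24 of them, and in 23 it lay on the side of the cKO arrays, the exception being Myl3. Of the named genes, 9 were named because soleus control 1 lay far from the other controls on them, so the count does not measure independently how often it did. Without these genes soleus control 1 was that array in 20 of 39 such sets among 434. Among contractile and calcium handling genes it was the highest control on Actc1 (10.60, nearest array 9.43), Atp2a2 (12.44, nearest array 12.18), Casq2 (10.89, nearest array 10.43), Mybph (8.17, nearest array 6.31), Myh3 (9.80, nearest array 7.68), Myh7 (12.92, nearest array 12.52), Myl3 (11.92, nearest array 11.60), Ryr3 (5.22, nearest array 4.51) and Tnni1 (12.19, nearest array 11.50), in log2 units. Among stress, cytoskeletal and other genes it was so on Camk2d (8.69, nearest array 8.28), Cct3 (8.90, nearest array 8.68), Cspg4 (7.03, nearest array 6.51), Fst (7.38, nearest array 6.80), Hspb1 (10.35, nearest array 9.41), Klhl40 (8.06, nearest array 7.11), Ldb3 (11.42, nearest array 11.05) and Psmc4 (8.16, nearest array 7.85). It was the lowest control on Car14 (6.16, nearest array 6.84), Dbt (8.58, nearest array 8.90), Idh3a (10.46, nearest array 11.01), Mrln (7.58, nearest array 7.74), Mstn (3.31, nearest array 4.28), Myh1 (10.81, nearest array 11.80) and Mylk4 (7.54, nearest array 9.25). Without this array the changes of all these genes but Myl3 stayed on the same side of the threshold.

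Soleus control 3 stood apart on Mfap5 (highest, 8.82). Soleus control 5 stood apart on Clcn1 (highest, 8.16), Lmod3 (highest, 11.16) and Mcm6 (lowest, 3.43). Soleus control 6 stood apart on Pecam1 (highest, 9.45). Among the cKO arrays, soleus cKO 6 was the one that stood apart most often, on Gusb (highest, 7.08), H2-Eb1 (lowest, 6.50), Hspb8 (lowest, 10.79), Mki67 (lowest, 4.63), Myh3 (highest, 12.06), Myh4 (highest, 9.57), Myom3 (highest, 10.84) and Sqstm1 (highest, 10.13). Soleus cKO 4 stood apart on Asb14 (highest, 8.09), Kcng4 (lowest, 4.82) and Mir337 (highest, 6.20). The remaining 4 cKO arrays did so on Padi2 (lowest, 5.69) for soleus cKO 1, Ankrd2 (lowest, 11.64) for soleus cKO 2, Pkp2 (lowest, 6.08) and Sesn1 (highest, 8.92) for soleus cKO 3 and Tbc1d1 (highest, 6.59) for soleus cKO 5.

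The change in soleus differed from the change in quadriceps on 93 genes named in the text, by limma's test of the difference itself at an adjusted p under 0.05. Values are the soleus change minus the quadriceps change in log2 units. It was negative among contractile and M-band genes on Myh1 (-1.72), Myh2 (-1.02), Myh4 (-2.33), Myh7 (-1.93), Myh8 (-1.66), Myl3 (-0.71), Tnnc1 (-1.76), Tnni1 (-1.72), Tnni2 (-0.40), Tnnt2 (-0.58), Myom2 (-1.06), Myom3 (-1.33), Csrp3 (-1.44) and Lmod2 (-0.90). Among genes of calcium handling, receptors and regulators of muscle formation it was negative on Atp2a1 (-0.34), Atp2a2 (-1.62), Casq2 (-1.28), Pln (-0.80), Sln (-1.13), Pvalb (-2.30), Chrna1 (-1.76), Chrnd (-1.03), Chrng (-1.51), Runx1 (-1.66), Prox1 (-1.01), Mymk (-1.23), Id1 (-1.01), Mef2a (-0.54) and Th (-0.98). Negative values among metabolic genes were those of Acat1 (-0.54), Oxct1 (-0.44), Cd36 (-0.75), Lpl (-1.04), Slc27a1 (-0.71), Slc5a3 (-2.06), Tbc1d4 (-0.81), Grb14 (-1.04), Phyh (-0.56), Ephx2 (-1.30), Car14 (-1.38) and Nqo1 (-0.67). For genes of vessels, matrix and immune cells they were those of Vegfa (-0.57), Emcn (-0.65), Epas1 (-0.69), Flt1 (-0.56), Rgs5 (-0.53), Myh11 (-0.77), Chad (-1.05), Mkx (-0.58), Postn (-0.54), Cxcl10 (-2.23), Mpeg1 (-0.68) and Ptprc (-0.78). The remaining negative values, of growth and stress genes, were those of Fst (-0.71), Igf2 (-0.83), Inhba (-0.54), Ostn (-3.18), Ddit3 (-0.53) and Mdm2 (-0.69).

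Positive values, where the soleus change was the higher, were found among sarcomere, Z-disc and triad genes on Mybph (4.0), Actc1 (2.13), Ldb3 (0.49), Pdlim3 (0.83), Klhl40 (1.02), Xirp2 (0.34), Unc45b (0.53), Bin1 (0.44), Cacnb1 (0.58), Ryr3 (0.74), Mrln (0.84), Popdc2 (1.15), Pkp2 (0.91) and Chrne (0.46). Among genes of protein and nucleotide turnover they were those of Psmc4 (0.52), Psmd4 (0.66), Sqstm1 (0.54), Map1lc3a (0.70), Aimp2 (1.92), Mrps12 (0.56), Nt5c1a (0.92), Uck2 (0.95), Gamt (1.74), Odc1 (0.97), Smyd2 (1.11) and Prkab2 (1.73). The other positive values, of signalling, surface and other genes, were those of Mstn (1.85), Gdf11 (1.15), Chac1 (1.45), Cd68 (0.95) and Camk2d (0.49). A positive value is also given by a gene that fell further in quadriceps than in soleus, as Mstn, Mrln, Chac1, Nt5c1a and Smyd2 did. Mstn was near the dim limit in soleus, which bounds the fall that could be seen there, so the size of its difference is uncertain. Unc45b showed -0.10 in soleus and fell in quadriceps. The fitted values of Muc15 (1.54), Epgn (1.79) and Dach2 (-0.63) rest on a soleus group with no array above the dim limit, so they give no size and support no difference between the muscles.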

How the results depend on the processing

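Leaving out 1 soleus array at a time, the number of genes that changed in soleus was 3235 to 4109, the number that differed between the muscles 1614 to 2659, and the change of Neb -1.21 to -1.08, with an adjusted p of at most 2.10e-05 over all alternatives tried. Of these fits, the one without soleus control 1 gave the highest number for soleus. Under the other alternatives that number stayed within 1.5 times of 3694. It was 4237 with the soleus arrays alone, 4931 for these without soleus control 1, 4245 with age as a covariate, 3602, 3879 and 3929 after median, 75th percentile and quantile scaling, and 5384 with array weights. Scaling set the share of higher genes at 66.9, 47.3 and 52.5% against 57.0% as deposited, and moved the median of all genes from -0.02 to 0.02, -0.06 and -0.01. The number that differed between the muscles moved to 2952 with the animal as a random block, to 2932 with cKO muscles number 4 unpaired in that block (added after the data were seen) and to 3570 with array weights. Control and cKO mice share only a replicate number, and a block on that number gave 4709 genes in soleus, with 4 of 6 control arrays closest to the cKO array of their own number. Of the 205 named genes that changed, 12 were lost under at least 1 of 27 alternatives and none turned direction. The 12 were Bag3, Id1, Mef2a, Mir127, Mir337, Mstn, Myl3, Pecam1, Rian, Slc2a4, Tnnc1 and Trim63. Genes that passed under an alternative only were Atp2a2, Cdh5, Dmd, Lmod2, Myh7, Ostn, Pax7, Rtl1 and Scx. Signal near the dim limit bounds what Mstn, Muc15, Epgn, Dach2 and the microRNA genes can show, and 6 arrays a group limit the precision, with a median SE of 0.10 log2 units.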

Other observations

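Genes of oxidant defence, of p53, of nucleotide balance and of methyl transfer held members that moved apart within each list. Over all 15999 genes tested, 13.2% rose and 9.94% fell, and the counts below are to be read beside these shares. Of 26 Nrf2 target and detoxification genes, 4 rose and 6 fell. Sod2, the superoxide dismutase of the mitochondrial matrix, read 10.54, 10.83 and 11.08 on the lowest, median and highest control array and 9.90, 10.01 and 10.10 on cKO arrays, and it fell by 0.82 ± 0.08 (adjusted p = 1.7e-08). Gpx1, a glutathione peroxidase, rose by 0.82 ± 0.08, and Nqo1, a quinone reductase, fell by 0.74. Of 18 p53 target genes, 6 rose and 2 fell. Zmat3, a zinc finger RNA-binding protein, rose by 1.05 ± 0.11, Sesn1, a sestrin, by 0.79, and Mdm2, the ubiquitin ligase that restrains p53, by 0.50 (adjusted p = 0.0218). Of 25 lysosomal genes, 7 rose and none fell, with Gusb, a glucuronidase, at 0.70 ± 0.09 and Lgmn, an asparaginyl protease, at 0.57.

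Among the 19 creatine and adenine nucleotide genes, 5 fell and 2 rose. Ckmt2, the mitochondrial creatine kinase of muscle, read 11.76 to 11.94 on control arrays and 11.11 to 11.28 on cKO arrays, and it fell by 0.63 ± 0.08. Nt5c1a, a cytosolic nucleotidase, fell by 1.5 ± 0.15, and Hprt, an enzyme of purine salvage, rose by 0.84. The list of 16 tested polyamine and methylation genes had 6 higher and 3 lower. Odc1, the first enzyme of polyamine synthesis, rose by 1.0 ± 0.15 in soleus and showed 0.03 in quadriceps (adjusted p of the difference 0.00361). Smyd1, a methyltransferase of the sarcomere, rose by 0.69 and Smyd2, a relative, fell by 0.85.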
